A study of Mus musculus with 6 samples.

Results

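The AP-1 and immediate early genes described here are Fos, Fosb, Fosl1, Fosl2, Jun, Junb, Jund, Atf3, Egr1 and Ier3, taken by gene symbol from the RefSeq rows of the expression table. These are 10 of 23473 RefSeq rows, and the table holds 56826 rows in all. AP-1 is a dimeric transcription factor built from basic leucine zipper (bZIP) proteins of the Jun and Fos families. Jun proteins pair with each other or with Fos proteins, whereas Fos proteins need a Jun partner to bind DNA. Most of these genes are immediate early genes, which growth factors, cytokines, stress and the handling of tissue switch on within minutes without new protein synthesis. In the endothelium AP-1 is known for its part in the responses to VEGF, shear stress and inflammatory cytokines.

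The libraries were made from tumor endothelial cells (TECs) of subcutaneous tumors of Lewis lung carcinoma (LLC), a mouse lung cancer cell line, in C57BL/6 mice aged 8 weeks. There were 3 Ctrl mice, whose genotype is labelled wild type, and 3 NICeCA mice, each sequenced as 1 library. NICeCA mice carry Cdh5-Cre ERT2, an endothelial Cre that tamoxifen activates, and a Rosa26 allele from which Cre releases the intracellular domain of Notch1, so that Notch signaling is switched on in endothelial cells. The methods describe daily tamoxifen before the inoculation of tumor cells but do not say whether the Ctrl mice of these libraries received it or carried Cre. Tumors were digested with collagenase for 45 min at 37 °C, and cells were taken with CD31 beads at a stated purity of more than 90%. The methods give day 14 after inoculation for these tumors, and the labels say that tumors were taken on different days without giving the day of each mouse.

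RefSeq rows held 27793329 to 30769948 reads per library. The ribosomal RNA gene Rn45s took 1.9% to 6.4% of them in Ctrl, most in Ctrl replicate 2 (6.4%), and 0.8% to 1.9% in NICeCA. Summed by list, the markers did not follow the label of the cells. In every library the 13 macrophage markers present summed to more than the 20 endothelial markers, at 9457 to 16968 RPKM (reads scaled to gene length and to the library total) against 392 to 1007 RPKM in Ctrl, and at 7202 to 12595 against 805 to 1046 RPKM in NICeCA. Apoe and Lyz2, named after their values were seen, had the largest means of the macrophage list. These were 4098 and 4317 RPKM in Ctrl and 2688 and 3889 RPKM in NICeCA. Such sums depend on the level of single listed genes and do not measure the share of each cell type. The endothelial markers Cdh5 and Pecam1 were present in all libraries at 30.9 to 96.5 and 47.5 to 154 RPKM. The Notch1 row, for which it is not known whether it counts reads of the transgene, did not pass the test (log2 fold change 0.11, SE 0.20, limma adjusted p = 0.71). The Notch target Hey1 was higher in NICeCA (1.10, SE 0.27, limma adjusted p = 0.041). Notch1 and Hey1 were named outside the naming rule given with the processing, and other Notch targets are not described here. In such bulk samples, fewer cells of a type and less RNA per cell cannot be told apart, and this holds for every difference below.

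Ier3, Jun and Atf3 were higher in the CD31 bead fractions of NICeCA tumors than in those of Ctrl tumors, by 3.11-fold, 1.63-fold and 1.62-fold. None of the 10 genes was lower by limma's test, with voom on recovered reads or at an unadjusted p under 0.05 (0 genes each). The other 7 did not pass the test, among them all 4 genes of the Fos family, Junb, Jund and Egr1. The test was limma on log2(RPKM + 1), two-sided, with the p-value adjusted over the 12320 genes tested and a threshold of 0.05. All 10 genes were tested, and over all tested genes 5.88% were higher and 7.68% lower by this test. Fold changes are on the log2(RPKM + 1) scale. The calls depended on single libraries. Of the 10 genes, 1 (Ier3) was higher without Ctrl replicate 2 and without NICeCA replicate 1. None was without NICeCA replicate 2 (4 at an unadjusted p under 0.05), and 4 were without Ctrl replicate 3. Calls over all tested genes moved too, from 725 higher in the main fit to 244 without Ctrl replicate 2. They numbered 90 without NICeCA replicate 1, 17 without NICeCA replicate 2 and 911 without Ctrl replicate 3. The loss of calls was thus not particular to the 10 genes. Limma adjusted p-values without Ctrl replicate 2, NICeCA replicate 1 and NICeCA replicate 2 were 0.061, 0.10 and 0.096 for Jun and 0.066, 0.11 and 0.11 for Atf3, and for Ier3 0.051 without NICeCA replicate 2.

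**Figure D1:**
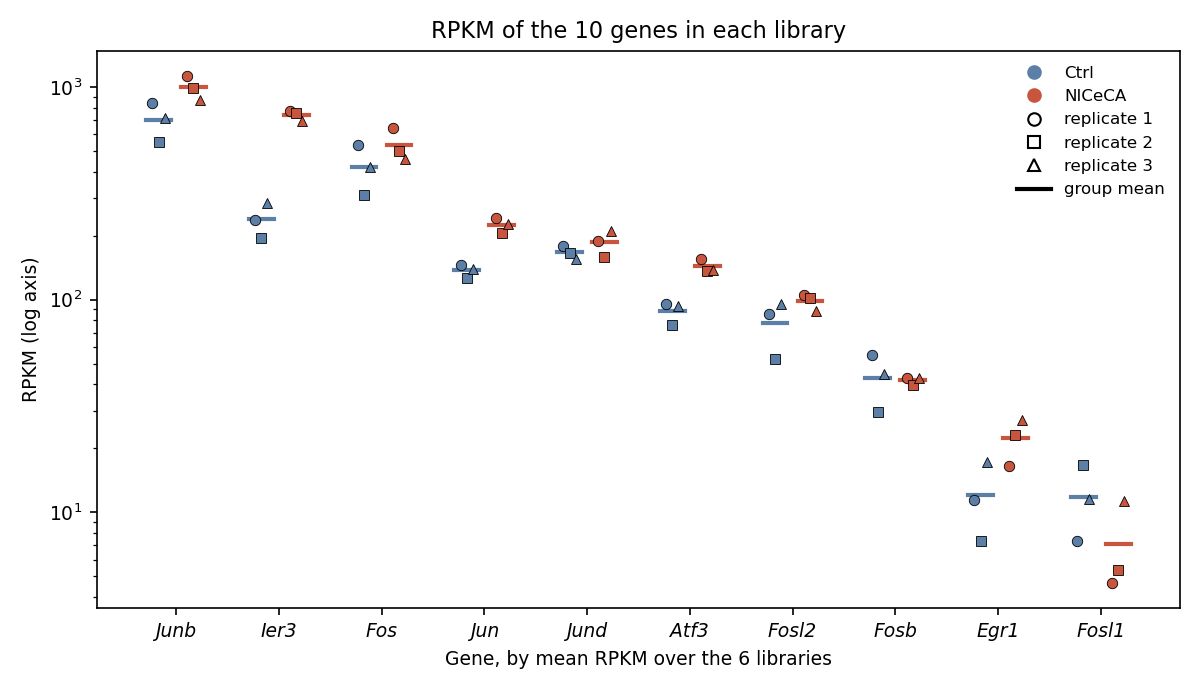
RPKM (log axis) of the 10 genes in each of the 6 libraries, with blue for Ctrl, red for NICeCA, a marker shape per replicate number and a bar at the group mean. The groups are apart for Junb, Ier3, Jun and Atf3 and overlap for the other 6 genes, and Ctrl replicate 2 is the lowest library for 8 of the 10.

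The level differed widely among the genes. RPKM is scaled by gene length, so levels of different genes can be set side by side. Averaged over the 6 libraries, Junb was the most abundant at 848 RPKM, followed by Ier3 (489), Fos (478), Jun (181), Jund (176), Atf3 (116), Fosl2 (88.3), Fosb (42.4), Egr1 (17.2) and Fosl1 (9.48). Among all RefSeq rows with reads in a library, tested or not, Junb stood between percentiles 99.4 and 99.7 and Fosl1 between percentiles 57.6 and 82.4. Among neighbours in this order, Junb was above Ier3, Fos above Jun, Jund above Atf3, Fosl2 above Fosb and Fosb above Egr1 in 6 of 6 libraries (exact sign-flip permutation test over libraries, two-sided, p = 0.031, the smallest that 64 assignments allow, and 0.056 adjusted over 9 pairs). Ier3 and Fos changed order with the group, with Fos above in every Ctrl library and Ier3 above in every NICeCA library. Jun and Jund did so too, with Jund above in every Ctrl library and Jun above in every NICeCA library. The test over all libraries pools the groups and cannot show such a reversal (3 of 6 libraries in this order for each pair). It gave exact p = 0.66, adjusted 0.74, for Ier3 and Fos and exact p = 1.0 for Jun and Jund. Atf3 was above Fosl2 in 5 of 6 libraries (exact p = 0.062, adjusted 0.094) and Egr1 above Fosl1 in 5 of 6 (exact p = 0.12, adjusted 0.16). Within the Ctrl libraries Fos ranked above Ier3 and Jund above Jun.

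Jun encodes c-Jun, the strongest activator among the Jun proteins. Its gene lies on chromosome 4 at 95049036 to 95052222 (GRCm38, minus strand). Jun was at 146, 127 and 140 RPKM in Ctrl replicates 1 to 3 and at 241, 206 and 226 RPKM in NICeCA replicates 1 to 3. Every NICeCA library was above every Ctrl library. The means were 138 ± 9.95 and 224 ± 17.8 RPKM (SD, n = 3 each), a log2 fold change of 0.70 (SE 0.13, limma adjusted p = 0.024). With 1 library left out in turn the log2 fold change stayed between 0.64 and 0.76. An annotated antisense RNA, Junos, overlaps Jun over 689 bases, and reads of the antisense partner cannot be told apart where counting did not use strand.

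Junb encodes the Jun protein that often opposes c-Jun on growth genes, and it lies on chromosome 8 at 84976909 to 84978748 (minus strand). Junb was at 841, 550 and 714 RPKM in the Ctrl replicates and at 1125, 989 and 872 RPKM in the NICeCA replicates. The groups did not overlap, but the highest Ctrl and the lowest NICeCA library were close. The difference did not pass the test (702 ± 146 against 995 ± 127 RPKM, SD, n = 3, log2 fold change 0.52, SE 0.19, limma adjusted p = 0.10). Jund, the Jun gene that is present in resting cells and is not classed as immediate early, lies on the same chromosome at 70697739 to 70700616 (plus strand). It was at 179, 166 and 156 RPKM in Ctrl and at 189, 158 and 210 RPKM in NICeCA. These ranges overlapped (log2 fold change 0.15, SE 0.15, limma adjusted p = 0.50), and under quantile normalization of the libraries the sign turned, to -0.20.

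Summed over Jun, Junb and Jund, the Jun family reached 1166, 842 and 1010 RPKM in Ctrl and 1555, 1353 and 1308 RPKM in NICeCA. The sums did not overlap (exact permutation test, two-sided, p = 0.1, the smallest that the 20 assignments of 3 against 3 allow). Within this sum Junb took most in each library, at 65.3% to 73.1%. The share of Jun was 12.5%, 15% and 13.8% in Ctrl and 15.5%, 15.2% and 17.3% in NICeCA, which did not overlap (exact p = 0.1). Shares within a library do not move with the scaling of that library. Jund took 15.4% to 19.7% in Ctrl and 11.7% to 16.0% in NICeCA (exact p = 0.3).

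Fos encodes c-Fos, the classic immediate early partner of Jun, and lies on chromosome 12 at 85473901 to 85477270 (plus strand). Fos was at 533, 312 and 420 RPKM in Ctrl and at 644, 502 and 458 RPKM in NICeCA. Only NICeCA replicate 1 was above all Ctrl libraries, and the difference did not pass the test (421 ± 110 against 535 ± 97.1 RPKM, SD, n = 3, log2 fold change 0.36, SE 0.22, limma adjusted p = 0.28). Fosb (chromosome 7, 19302696 to 19310045, minus strand) encodes a close relative of c-Fos. It had a log2 fold change of 0.00 (SE 0.21, limma adjusted p = 1.0), from 54.7, 29.6 and 44.8 RPKM in Ctrl and 42.9, 39.8 and 42.7 RPKM in NICeCA. The NICeCA values lay inside the Ctrl range, and the sign of this difference turned negative with several alternatives.

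Fosl2 and Fosl1 encode Fra-2 and Fra-1, Fos proteins without the strong activating domain of c-Fos. Fosl2 (chromosome 5, 32136472 to 32157839, plus strand) was at 85.6, 52.6 and 95.4 RPKM in Ctrl and at 105, 102 and 88.8 RPKM in NICeCA (log2 fold change 0.38, SE 0.22, limma adjusted p = 0.25). NICeCA replicate 3 lay within the Ctrl range. Fosl1 (chromosome 19, 5447698 to 5455938, plus strand) was the one gene with a negative log2 fold change, at 7.30, 16.7 and 11.5 RPKM in Ctrl and 4.68, 5.33 and 11.3 RPKM in NICeCA (-0.69, SE 0.35, limma adjusted p = 0.20). The groups overlapped. Ctrl replicate 2, the lowest library for 8 of the 10 genes, was the highest for Fosl1. The row of Ccdc85b on the other strand overlaps that of Fosl1 over 2776 bases and had a log2 fold change of -0.35 (SE 0.19, limma adjusted p = 0.23).

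The Fos family summed to 680, 411 and 572 RPKM in Ctrl and to 797, 650 and 601 RPKM in NICeCA, with overlap (exact permutation test, p = 0.4). Fos made up 73.5% to 80.8% of this sum in every library. The share of Fosb was 8.04%, 7.22% and 7.83% in Ctrl and 5.38%, 6.13% and 7.11% in NICeCA, lower in each NICeCA library than in any Ctrl library (exact p = 0.1). Per library, Fos family RPKM divided by Jun family RPKM was 0.583, 0.488 and 0.566 in Ctrl and 0.512, 0.480 and 0.459 in NICeCA (exact p = 0.2). Jun family transcripts exceeded Fos family transcripts in all 6 libraries. These sums and shares were chosen after the values had been seen.

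**Figure D2:**
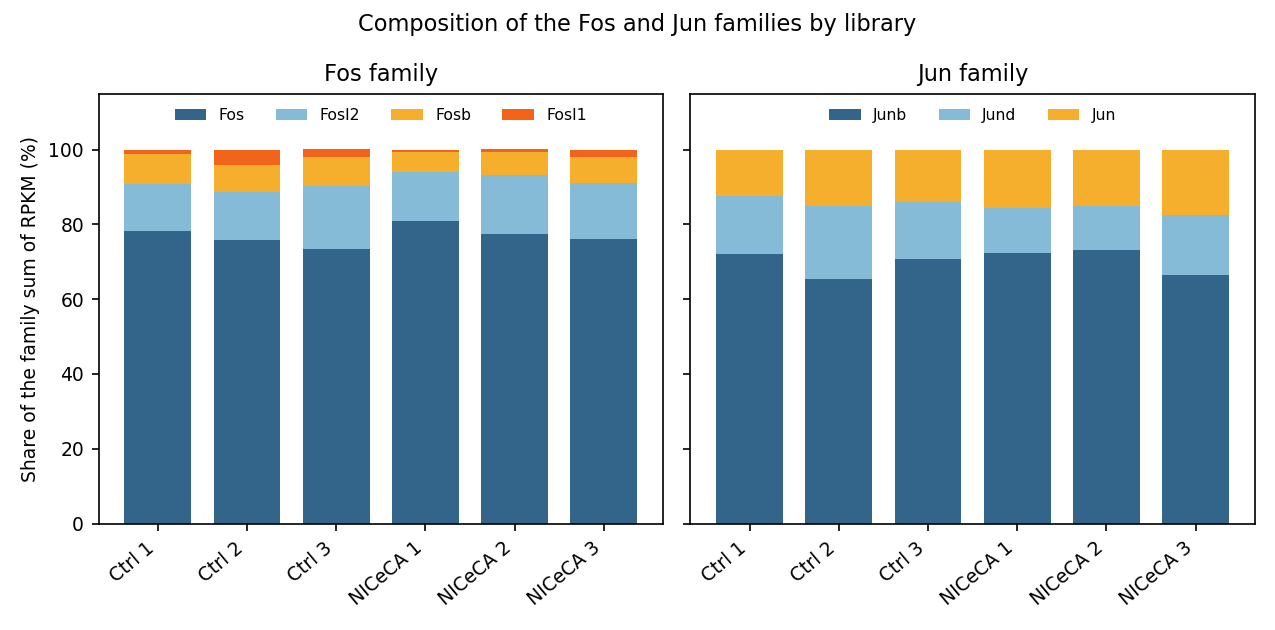
Share (%) of each gene in the summed RPKM of the Fos family and of the Jun family, 1 stacked bar per library. Fos and Junb fill most of each bar, the Jun segment is 12.5% to 15% in Ctrl and 15.2% to 17.3% in NICeCA, and the Fosb segment is 7.22% to 8.04% and 5.38% to 7.11%.

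Atf3 encodes a bZIP protein that is induced by many stresses, dimerizes with Jun proteins and represses many of its targets. It lies on chromosome 1 at 191170297 to 191183333 (minus strand). Atf3 was at 95.2, 76.3 and 93.2 RPKM in Ctrl and at 156, 137 and 138 RPKM in NICeCA. The lowest NICeCA library was above the highest Ctrl library (88.2 ± 10.4 against 143 ± 10.7 RPKM, SD, n = 3, log2 fold change 0.70, SE 0.14, limma adjusted p = 0.028).

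Egr1 encodes a zinc finger transcription factor that serum response factor and its ETS partners switch on together with Fos, and lies on chromosome 18 at 34861207 to 34864956 (plus strand). Egr1 was at 11.4, 7.37 and 17.3 RPKM in Ctrl and at 16.6, 23.1 and 27.2 RPKM in NICeCA. NICeCA replicate 1 fell below Ctrl replicate 3, so the groups overlapped (12 ± 5.0 against 22.3 ± 5.32 RPKM, SD, n = 3). Its log2 fold change of 0.88 (SE 0.29) exceeded those of Jun and Atf3 but did not pass the test (limma adjusted p = 0.076). Without Ctrl replicate 3 it did (1.16, limma adjusted p = 0.034).

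Ier3 encodes a short protein that is induced by NF-kB, growth factors and irradiation and modulates ERK signaling and cell death. It is not part of AP-1. Its gene lies on chromosome 17 at 35821713 to 35822911 (plus strand). Ier3 was at 238, 195 and 284 RPKM in Ctrl and at 769, 757 and 692 RPKM in NICeCA. The 2 groups were far apart, with means of 239 ± 44.6 and 739 ± 41.6 RPKM (SD, n = 3), and the log2 fold change of 1.64 (SE 0.17, limma adjusted p = 0.0088) was the largest of the 10 genes. With 1 library left out it ranged from 1.5 to 1.77.

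**Figure D3:**
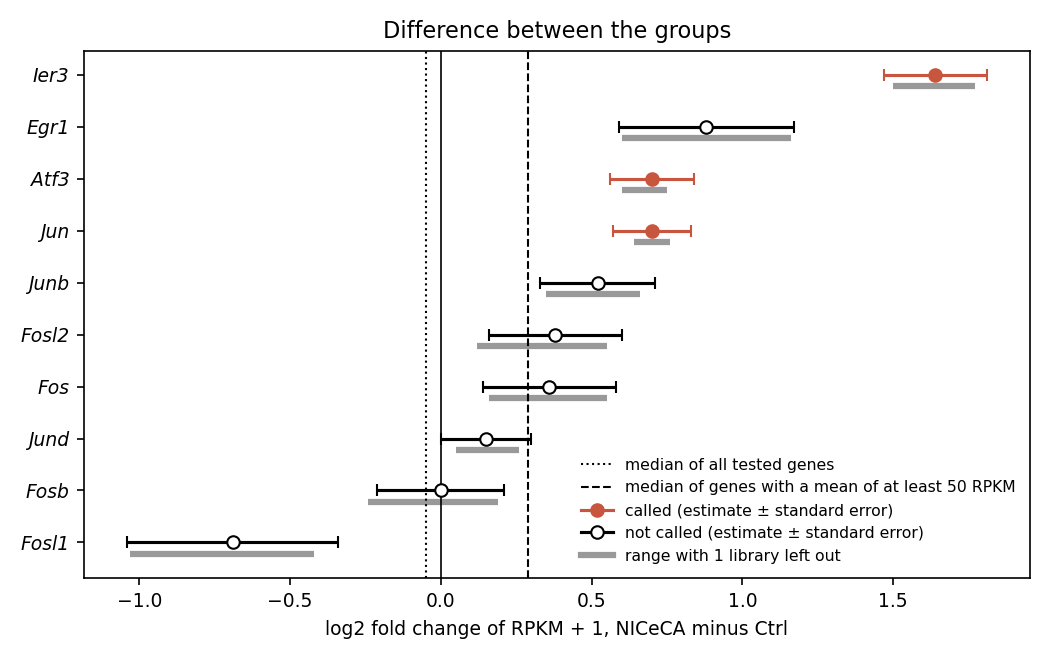
Log2 fold change of RPKM + 1, NICeCA minus Ctrl, for the 10 genes (points with standard error, red where the test was passed) and the range over the 6 fits with 1 library left out (grey bars). Ier3 lies at 1.64, 8 genes are above 0, Fosb is at 0.00 and Fosl1 at -0.69, and the dashed line marks the median of genes with a mean of at least 50 RPKM, 0.29.

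Across the 10 genes, 8 had a positive log2 fold change after rounding, and 90.0% did before rounding, when Fosb (0.00) counts as positive. The median was 0.45, against a median of -0.05 over all tested genes. In 4 of the 10 (Ier3, Jun, Atf3 and Junb) every NICeCA library was above every Ctrl library, which was so for 16.5% of all tested genes. Abundant genes as a class were shifted the same way. Of the 1000 tested genes with a mean of at least 50 RPKM, 78.3% had a positive log2 fold change, their median was 0.29, and 20.6% were higher by the test. The 7 genes described here at that level had a median of 0.52, and 3 of the 7 were higher. The class was chosen after the values had been seen, and its part in the differences of Ier3, Jun and Atf3 was not tested. Quantile normalization, which gives all libraries 1 distribution, lowered the median of the 10 genes to 0.14, and Ier3 alone still passed (1.31).

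The 3 called genes and Fos are represented here by the 100 bases before their RefSeq start sites (GRCm38.p6), since the question of the study concerns Notch, which acts on DNA through RBPJ, and since Jun and Fos genes are known to be controlled from such proximal sites. Capitals mark the matches found by search, on either strand, of TGANTCA (AP-1), TGACGTCA (CRE), the CArG box of serum response factor, TGGGAA (the core bound by RBPJ), GCGNGGGCG (EGR) and, added after the sequences had been read, TGANNTCA and TATAAA. TGANNTCA includes every TGACGTCA. Each sequence runs 5′ to 3′ on the strand of its gene and ends at the base before the start.

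Jun, chr4:95052223-95052322, minus strand: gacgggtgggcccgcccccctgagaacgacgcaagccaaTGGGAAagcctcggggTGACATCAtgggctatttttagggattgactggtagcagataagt

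Atf3, chr1:191183334-191183433, minus strand: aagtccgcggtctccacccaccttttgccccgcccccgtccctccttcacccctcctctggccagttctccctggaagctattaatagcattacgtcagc

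Ier3, chr17:35821613-35821712, plus strand: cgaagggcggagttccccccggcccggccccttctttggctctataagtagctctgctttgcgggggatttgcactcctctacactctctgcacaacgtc

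Fos, chr12:85473790-85473889, plus strand: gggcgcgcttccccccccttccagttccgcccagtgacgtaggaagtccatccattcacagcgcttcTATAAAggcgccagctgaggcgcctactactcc

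A promoter of 250 bases before to 50 after the start was matched by symbol for 8 of the 10 genes, all except Egr1 and Fosl1. Jun held TGGGAA at -61 and TGACATCA at -45 from the start, and a further TGANNTCA match, TGAGCTCA, at 3 after it. Jund held both kinds of match too, as TTCCCA at -187 and TGAAATCA at -61. Among all 32851 promoters in the RefSeq set 25.6% held TGGGAA and 14.1% held TGANNTCA. No match to TGANTCA, TGACGTCA or the CArG box lay in any of the 8 windows, against 7.81%, 1.79% and 1.63% of all promoters. A stretch that departs from these patterns at any base was not counted. Examples are ttacgtca in the Atf3 sequence and tgacgtag in the Fos sequence above, so no match does not mean that related sites are absent. Bases farther upstream than 250 were not searched, so sites there, also those of Fos, would be missed. GCGNGGGCG was found in Fosl2 and Fosb (5.55% of all promoters), and TATAAA in Fos at -33 and in Junb at 1 (13.6%). The 250 bases upstream had a GC content of 61.2% in Jun, 65.2% in Atf3, 54.4% in Ier3 and 58.4% in Fos, and the median of all promoters was 52.4%. A match describes these letters and does not show that a factor binds there.

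The genes that the text sets beside the 10 come from lists written from general knowledge, with earlier results of these data known. Among 39 tested of 40 other immediate early genes, 18 were higher and 3 lower, and the median log2 fold change was 0.59. The shares over all tested genes were 5.88% higher and 7.68% lower. Among tested genes with a mean of at least 50 RPKM 20.6% were higher. Ptgs2, which encodes the inducible prostaglandin synthase COX-2, rose from 43.6 ± 19.2 to 192 ± 37.9 RPKM (SD, n = 3, log2 fold change 2.18, SE 0.29, limma adjusted p = 0.011). Plk2, a kinase gene of the stress response, rose by 1.57 (SE 0.18, limma adjusted p = 0.0097), the zinc finger gene Egr2 by 1.15 (SE 0.27, limma adjusted p = 0.038) and Gadd45a, which encodes a growth arrest protein, by 1.14 (SE 0.12, limma adjusted p = 0.0089) on the log2 scale. The 3 lower genes, named after their values were seen, were Klf2 (-0.79), a flow-responsive gene of the endothelium, Egr3 (-0.76), a relative of Egr1, and the clock gene Per1 (-0.65). With 1 library left out the count of higher genes ranged from 0 (without NICeCA replicate 2, where 20 had an unadjusted p under 0.05) to 19, and it was 4 without NICeCA replicate 1. It was 6 under quantile normalization and 8 with the replicate block, and 1 without the filter on low values. Lower genes numbered 0 without Ctrl replicate 2, NICeCA replicate 1 or NICeCA replicate 2 (3 at an unadjusted p under 0.05 without either NICeCA library). They numbered 0 also with the replicate block and without the filter, and 2 under quantile normalization. Egr3 was low, at 1.41 to 2.25 RPKM in Ctrl and 0.484 to 0.834 RPKM in NICeCA.

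Of 18 partner and competitor bZIP genes, 4 were higher and 1 lower, with a median of 0.32. Over all tested genes 5.88% were higher and 7.68% lower. Under quantile normalization 1 was higher and none lower. Maff, a small Maf gene, was at 14.7 ± 2.34 RPKM in Ctrl and 33.4 ± 3.68 RPKM in NICeCA (SD, n = 3, log2 fold change 1.14, SE 0.15, limma adjusted p = 0.011). Atf4, the effector of the integrated stress response, had a log2 fold change of 0.61 (SE 0.12, limma adjusted p = 0.028), Cebpd of 0.56 (SE 0.14, limma adjusted p = 0.040) and Atf7, a CRE binding relative of ATF2, of -0.57 (SE 0.14, limma adjusted p = 0.040). With 1 library left out 0 to 3 genes were higher, with 0 without NICeCA replicate 2, where 8 had an unadjusted p under 0.05. The call of Atf7 was lost in each such fit except that without NICeCA replicate 3, with limma adjusted p-values of 0.051, 0.093, 0.062, 0.14 and 0.16.

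Next came genes upstream of Fos and Egr1. Among 30 genes of the MAP kinase pathway and of serum response factor and its cofactors, 1 was higher and 1 lower (median -0.04), against 5.88% and 7.68% of all tested genes. By voom 1 was higher and 2 were lower, and at an unadjusted p under 0.05 1 was higher and 7 were lower. The higher was Map2k1, which encodes the kinase MEK1, at 40.5 ± 7.22 RPKM in Ctrl and 68.9 ± 2.37 RPKM in NICeCA (SD, n = 3, log2 fold change 0.77, SE 0.15, limma adjusted p = 0.026). The lower was Mkl1, a cofactor of serum response factor (-0.59, SE 0.13, limma adjusted p = 0.036), a call that was lost with any 1 library left out (0.053 to 0.15). Of 16 phosphatase and Sprouty genes that feed back on this pathway, 3 were higher and none lower (2 lower at an unadjusted p under 0.05, and 0 by voom), with a median of 0.11. These were Errfi1, an inhibitor of EGF receptors (1.52, SE 0.19, limma adjusted p = 0.011), and the MAP kinase phosphatase genes Dusp5 (1.20, SE 0.23, limma adjusted p = 0.026) and Dusp4 (0.97, SE 0.19, limma adjusted p = 0.027). Without NICeCA replicate 2 no gene of either list was called, and 1 and 4 genes were higher at an unadjusted p under 0.05. Without NICeCA replicate 1, no gene was higher in the first list and 1 in the second.

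Known AP-1 target genes had a larger median than the lists above. Of 21 tested of 25, 12 were higher and none lower, against 5.88% and 7.68% of all tested genes. The count of lower genes was 0 also by voom and at an unadjusted p under 0.05, and the median log2 fold change was 1.00. Under quantile normalization 9 were higher and 1 lower (Mmp14, a membrane-bound metalloproteinase gene named after its value was seen, -0.55, limma adjusted p = 0.034), and without the filter none was higher (12 at an unadjusted p under 0.05). Mmp12, the macrophage elastase gene, was at 9.14, 9.36 and 33.7 RPKM in Ctrl and at 142, 138 and 152 RPKM in NICeCA (log2 fold change 3.23, SE 0.43, limma adjusted p = 0.011). Mmp13, a collagenase gene, was at 1.75, 3.60 and 11.9 RPKM and at 48.0, 44.7 and 56.7 RPKM (3.21, SE 0.48, limma adjusted p = 0.016). In both genes Ctrl replicate 3 was the highest of its group and was below each NICeCA library. Mmp9, a gelatinase gene that is also on the neutrophil list, had a log2 fold change of 3.10 (SE 0.38, limma adjusted p = 0.011), and Hmox1, which encodes heme oxygenase, of 1.98 (SE 0.23, limma adjusted p = 0.010). The count of higher genes was 2 without NICeCA replicate 2, 3 without NICeCA replicate 1 and 10 to 13 without each of the others.

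**Figure D4:**
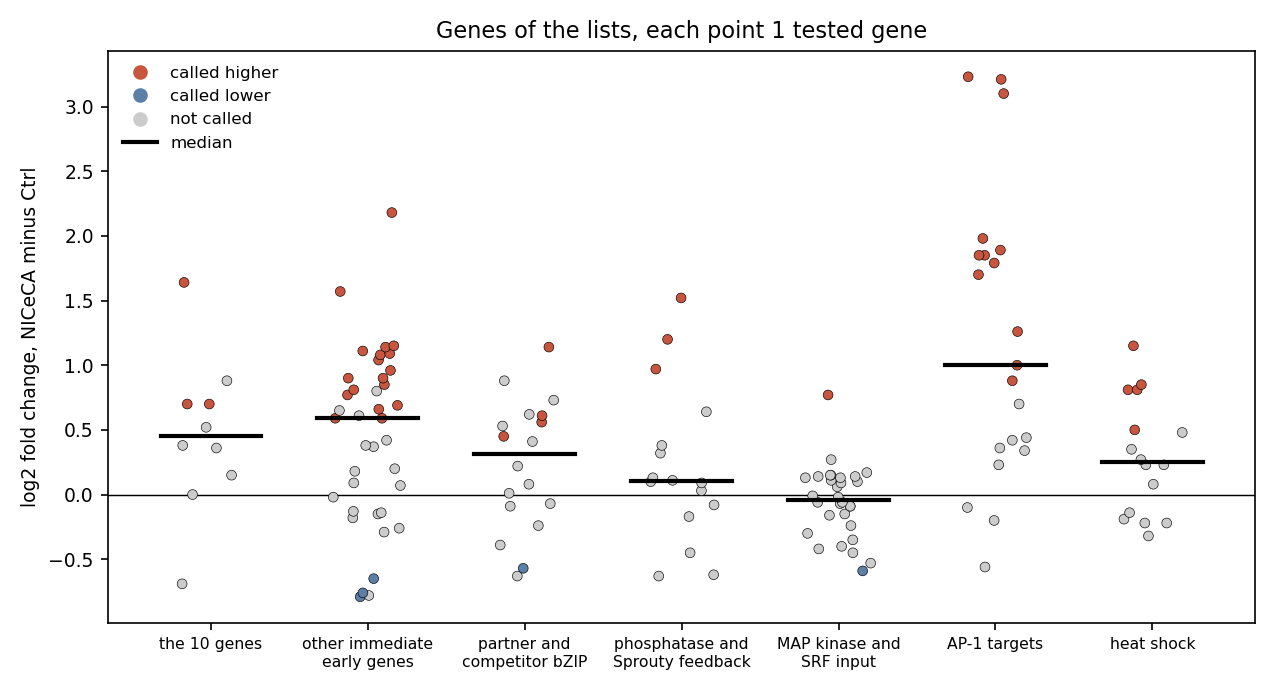
Log2 fold change, NICeCA minus Ctrl, of the 10 genes and of each tested gene of 6 lists, 1 point per gene, red where higher and blue where lower by the test, with a bar at the median. The medians are 0.45 for the 10 genes, 0.59 for other immediate early genes, 0.32 for bZIP genes, 0.11 for feedback genes, -0.04 for MAP kinase and serum response factor genes, 1.00 for AP-1 targets and 0.25 for heat shock genes.

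Heat shock genes encode chaperones and are known to rise in tissue that is digested warm. Of 16 genes 5 were higher and none lower, against 5.88% and 7.68% of all tested genes. By voom the counts were 5 and 0, and at an unadjusted p under 0.05 they were 7 and 0. The other 11 did not pass the test, the median log2 fold change was 0.25, and 5 of the 16 values were negative. Under quantile normalization 2 were higher. Hspa1a rose from 95.4 ± 14.8 to 216 ± 51.5 RPKM (SD, n = 3, log2 fold change 1.15, SE 0.20, limma adjusted p = 0.021), Hspa5 by 0.85 (SE 0.15, limma adjusted p = 0.021), Hsp90aa1 by 0.81 (SE 0.21, limma adjusted p = 0.045) and Hspa1b by 0.81 (SE 0.22, limma adjusted p = 0.047). Hspa1a and Hspa1b are near-identical copies, so their split of reads is uncertain. No heat shock gene was higher without NICeCA replicate 1 or without NICeCA replicate 2 (6 and 5 at an unadjusted p under 0.05), 1 was without Ctrl replicate 2, and 2 were without Ctrl replicate 1 or NICeCA replicate 3. The part of the digestion in the differences of Ier3, Jun and Atf3 was not tested.

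Neutrophil markers differed between the groups. Of 12 tested neutrophil markers 11 were higher and none lower, against 5.88% and 7.68% of all tested genes. The 13 present summed to 212, 272 and 380 RPKM in Ctrl and to 829, 1147 and 1959 RPKM in NICeCA. S100a8 (log2 fold change 2.64, SE 0.51, limma adjusted p = 0.026), Lcn2 (2.47, SE 0.52, limma adjusted p = 0.032) and S100a9 (2.21, SE 0.58, limma adjusted p = 0.045) led this list with Mmp9. The count of higher neutrophil markers was 1 without NICeCA replicate 2, 3 without NICeCA replicate 1 and 5 without Ctrl replicate 2. The groups did not overlap in this sum. Of 13 macrophage markers 3 were higher and none lower, 6 had a negative log2 fold change and the median was 0.07. The 3 were Fcgr1 (1.52, SE 0.16, limma adjusted p = 0.0092), Cd14 (0.97, SE 0.19, limma adjusted p = 0.026) and Cd68 (0.75, SE 0.13, limma adjusted p = 0.022), and the sum of the list overlapped between the groups. Without NICeCA replicate 2 no macrophage marker was higher (4 at an unadjusted p under 0.05), and 1 was without NICeCA replicate 1. The part of these cells in the differences of Ier3, Jun and Atf3 was not tested.

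Endothelial markers were spread in Ctrl. All 20 had a positive log2 fold change (median 0.66), and 2 (10.0%) were higher, against 5.88% of all tested genes. These were Vwf (1.15, SE 0.26, limma adjusted p = 0.036) and Flt1 (1.03, SE 0.27, limma adjusted p = 0.044). Without Ctrl replicate 1, 16 were higher, and none was without any 1 of the NICeCA libraries. The sum of the 20 was 1007, 392 and 507 RPKM in Ctrl and 805, 1046 and 968 RPKM in NICeCA. Ctrl replicate 2, which had the lowest endothelial sum, was also the lowest library for 8 of the 10 AP-1 and immediate early genes and the highest for the fibroblast and mural sum (594 RPKM) and the tumor and proliferation sum (92.2 RPKM). Without Ctrl replicate 2, 8 of the other immediate early genes were higher, and of the 10 genes Ier3 alone. Ctrl replicate 1, with an endothelial sum inside the NICeCA range, was at 146 RPKM for Jun, 95.2 RPKM for Atf3 and 238 RPKM for Ier3, each below all NICeCA libraries. The part of endothelial content in the differences of the 10 genes was not tested.

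Calls in the remaining marker lists went in both directions, and none was made without NICeCA replicate 1 or 2. Of 11 T and NK cell markers 1 (9.09%) was higher and none lower, against 5.88% and 7.68% of all tested genes. The higher was Gzmb (0.70, SE 0.15, limma adjusted p = 0.034), and the sums were 55.4 to 88.1 RPKM in Ctrl and 61.6 to 81 RPKM in NICeCA. Of 13 tested fibroblast and mural markers, Tagln (1.45) and Rgs5 (1.40) were higher and Col3a1 (-1.13), Lum (-1.01) and, named after its value was seen, Pdgfra (-0.89) were lower. Their sums were 363 to 594 RPKM in Ctrl and 223 to 450 RPKM in NICeCA. Of 6 tested tumor epithelial and proliferation markers, Krt18 (-0.98) and Mki67 (-0.90) were lower, with sums of 60.7 to 92.2 and 47.7 to 66.9 RPKM. No listed gene of any cell type that the table holds was at 0 in all libraries.

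**Figure D5:**
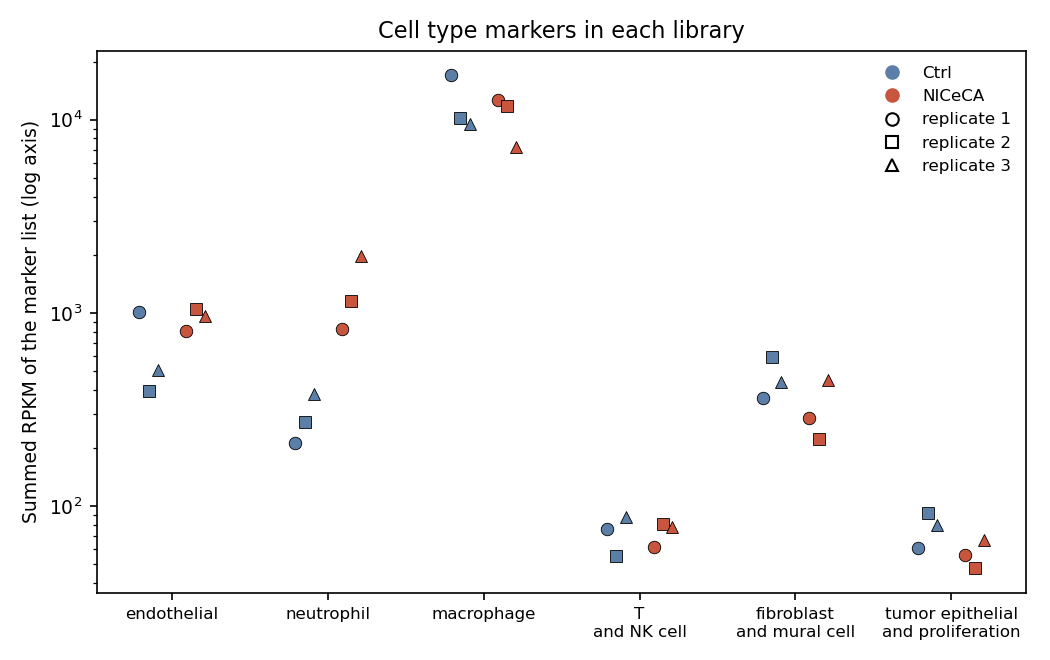
Summed RPKM (log axis) of each list of cell type markers in the 6 libraries, blue for Ctrl and red for NICeCA, with a marker shape per replicate number. Macrophage markers sum highest in every library (7202 to 16968 RPKM), and the neutrophil sum is 212 to 380 RPKM in Ctrl and 829 to 1959 RPKM in NICeCA.

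For Fos, Jun and Egr1 the tested genes with the most similar profile over the 6 libraries were found by the root mean square difference of centred log2(RPKM + 1) among 12310 candidates. Nearest to Jun were Fnip2 (0.047), the amino acid transporter gene Slc3a2 (0.050) and the macrophage gene Cd68 (0.053). Fnip2 was at 18.6, 16.0 and 18.8 RPKM in Ctrl and at 33.0, 29.1 and 30.0 RPKM in NICeCA, with NICeCA replicate 1 the highest and Ctrl replicate 2 the lowest, as for Jun. Nearest to Fos were Emid1 (0.083), Slc36a4 (0.083) and Hes6 (0.084). Nearest to Egr1 were Gm14047 (0.058), the early activation gene Cd69 (0.109) and Mir223 (0.133), the last a microRNA gene of myeloid cells. These values describe likeness over 6 libraries and carry no test.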

How the data were processed

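TECs of 3 Ctrl and 3 NICeCA mice were sequenced after removal of ribosomal RNA. The authors deposited RPKM values of gene rows. The submitters' processing notes name TopHat2 and mm9, yet gene positions are on GRCm38. The counting tool and its use of strand were not stated. Columns were matched to mice by the library labels. RPKM divided by the value of 1 read gave whole reads within 0.05 for 100.0% of values under 1000 reads. Replicates were not duplicates (chi-square per degree of freedom of at least 55.3).

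RefSeq rows with a mean of at least 1 RPKM were compared as log2(RPKM + 1) in R 4.3.3 by limma 3.58.1 (moderated linear model, mean-variance trend, Benjamini-Hochberg), tested on simulated data. Named are all 10 genes, up to 4 called genes per list with the largest change, and the 3 genes most like Fos, Jun and Egr1. The genes and lists were chosen with earlier results of these data known. With 3 mice a group an exact permutation test cannot go below p = 0.1. Alternatives were another pseudocount, filter, scaling or model, voom, the replicate number as a block, removal of the length trend, and each library left out.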

Additional observations from a re-analysis of the deposited data

Results flagged for a closer look

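Rows of the FANTOM3 transcript set were in no comparison, and 2 of them that lie over the genes described above differed between the groups without overlap. G370022D09, annotated on the minus strand at chromosome 17, 35822268 to 35822911, inside Ier3, was at 221, 178 and 260 RPKM in Ctrl and at 727, 737 and 625 RPKM in NICeCA, a difference of mean log2(RPKM + 1) of 1.67. Its RPKM was 90.4% to 97.4% of that of Ier3 in every library, and Ier3 is on the plus strand. 5430405N01, annotated on the minus strand at chromosome 5, 32136173 to 32137187, over the start of Fosl2, was at 121, 83.0 and 138 RPKM in Ctrl and at 165, 162 and 142 RPKM in NICeCA, a difference of 0.48. Neither difference was tested, and reads of the strands cannot be told apart where counting did not use strand.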

How the results depend on the processing

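Of the 10 genes, Ier3 passed the test in 13 of 15 alternatives, Jun and Atf3 in 9 each and Egr1 in 1, and the other 6 in none. The count of 3 higher genes fell to 1 (Ier3) under quantile normalization and with the replicate block, to 0 without a filter, and ranged from 0 to 4 with 1 library left out, where the count of lower genes stayed at 0. The paper describes the mice of this experiment as 3 pairs, and the labels do not say which mice formed a pair. The main fit was unpaired. Same-numbered libraries were not evidently the pairs (correlations of their deviations 0.12, -0.34 and -0.18), and not every library correlated best with its own number. With 3 mice a group these correlations cannot settle whether the mice were paired. Over all genes, 725 higher and 946 lower became 327 and 209 with the replicate block, 446 and 325 under quantile normalization, and 42 and 9 without a filter. They ranged from 17 to 911 and from 1 to 832 with 1 library left out, with the fewest without NICeCA replicate 2. Lower genes numbered 579 under the 5 RPKM filter and 206 with the length trend removed. Higher genes were 43.4% of calls, and 60.1% with trimmed mean scaling (1033 higher, 687 lower), 57.8% under quantile normalization and 74.1% with the length trend removed. Fosb ranged from -0.24 to 0.19 with 1 library left out, was negative without Ctrl replicate 2 (-0.24), NICeCA replicate 1 (-0.02) and NICeCA replicate 3 (-0.01), and turned to -0.20 under quantile normalization, as Jund did (-0.20). Within the Ctrl libraries 6 of 10 genes kept their rank by level. The causes were not tested. Each of these genes had 291 to 75550 reads per library, so counting error is largest for the least abundant, Fosl1 and Egr1.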
